A study of Mus musculus with 6 samples.

Results

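Active DNA demethylation is carried out by a short chain of enzymes, and 10 of its genes were followed here in AML12 cells after knock-down of Uhrf2: the dioxygenase genes Tet1, Tet2 and Tet3, the DNA glycosylase genes Tdg, Mbd4, Smug1 and Ung, and the base excision repair genes Apex1, Xrcc1 and Parp1. They were chosen by symbol, and all 10 were found among the 35709 genes of the table. AML12 is an established mouse hepatocyte line derived from mice transgenic for TGF-alpha. The first group (siUhrf2, 3 libraries) received a small interfering RNA against Uhrf2 for 72 h, and the second (siCtrl, 3 libraries) a scrambled one for the same time. Both were delivered with Lipofectamine RNAiMAX, and the labels give siCtrl as wild type. The knock-down is partial and transient, in 1 cell line, and total RNA of the whole culture was sequenced, so less RNA per cell and fewer cells expressing a gene cannot be told apart. No label ties a replicate to its own culture. The p-values therefore speak of the spread among these libraries alone, and that spread may be technical.

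TET enzymes oxidize the methyl group of methylated cytosine, first to hydroxymethylcytosine and then to formyl- and carboxylcytosine. Thymine DNA glycosylase removes the formyl and carboxyl forms, as well as thymine or uracil mispaired with guanine, and leaves a site without a base. An endonuclease then cuts the strand there, and a polymerase and a ligase, held by the XRCC1 scaffold and called in by PARP1, restore an unmodified cytosine. UHRF2 is known as a reader of hydroxymethylated DNA, which places it next to this chain without being an enzyme of it.

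Sequencing depth was between 44.6 M and 53.1 M estimated reads per library. Uhrf2 itself had 2841 ± 88.2 normalized counts in siUhrf2 and 8992 ± 82.6 in siCtrl (SD, n = 3 each; limma adjusted p = 7.58e-11), and was low in every siUhrf2 library. Its partners at the methylated end of the cycle did not pass the test: the maintenance cofactor gene Uhrf1 and the methyltransferase genes Dnmt1, Dnmt3a and Dnmt3b had log2 differences of 0.03, 0.07, -0.03 and -0.09. Of 7 hepatocyte markers 5 reached a mean of 1 FPKM (fragments scaled by transcript length and library size), with Hnf4a, Trf, Krt8 and Krt18 well expressed and Ttr low. Alb and Apoa1 averaged under 1 FPKM in both groups. Summed over the hepatocyte list the level was 3002 to 3196 FPKM in siUhrf2 and 2525 to 2744 FPKM in siCtrl. Krt8 and Krt18 carried most of that sum, at 1033 and 1168 FPKM in siUhrf2 and 723 and 838 FPKM in siCtrl. Trf was lower in siUhrf2, at 804 FPKM against 1017 FPKM in siCtrl. Ttr had 3.56 FPKM in siUhrf2 and 6.13 FPKM in siCtrl and did not pass (limma adjusted p = 0.098). Alb, not tested, had 0.47 FPKM in siUhrf2 and 0.75 FPKM in siCtrl. Krt18, Krt8 and Hnf4a rose 1.41-fold, 1.44-fold and 1.06-fold, and Trf fell by 0.32 on the log2 scale. Of 18 markers of other cell types 5 reached a mean of 1 FPKM, and all 5 passed the test, as did 61.0% of all genes tested. Krt19 and Sox9 rose, and Csf1r, Cd68 and Krt7 fell to 0.373, 0.435 and 0.892 of their siCtrl level. Csf1r and Cd68 were low, at 1.42 and 1.80 FPKM in siUhrf2 and 3.83 and 4.24 FPKM in siCtrl. Krt19 rose 1.98-fold and carried most of the summed level of 558 to 606 FPKM in siUhrf2, against 311 to 346 FPKM in siCtrl. Adgre1, Clec4f and Epcam were at 0 in all libraries. The part of these cell type markers in the results below was not tested.

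Of the 10 genes, 9 had a mean of at least 1 FPKM and were tested with all 11343 genes at that level, and Tet1 was below it. Tet2, Tdg, Apex1 and Parp1 rose, Tet3 and Xrcc1 fell, and Mbd4, Smug1 and Ung did not pass at a Benjamini-Hochberg adjusted p under 0.05. That makes 4 genes higher, where 29.9% of all genes tested were higher, and 2 lower, where 31.1% were lower. In all, 61.0% of genes passed, and the 6 of 9 seen here lie close to that share. The groups did not overlap in 6 of the 9, against 66.7% of all genes tested. The median log2 fold change was 0.13 for the 9 genes and -0.01 for all genes tested. The plot of values by library shows the 10 genes.

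**Figure D1:**
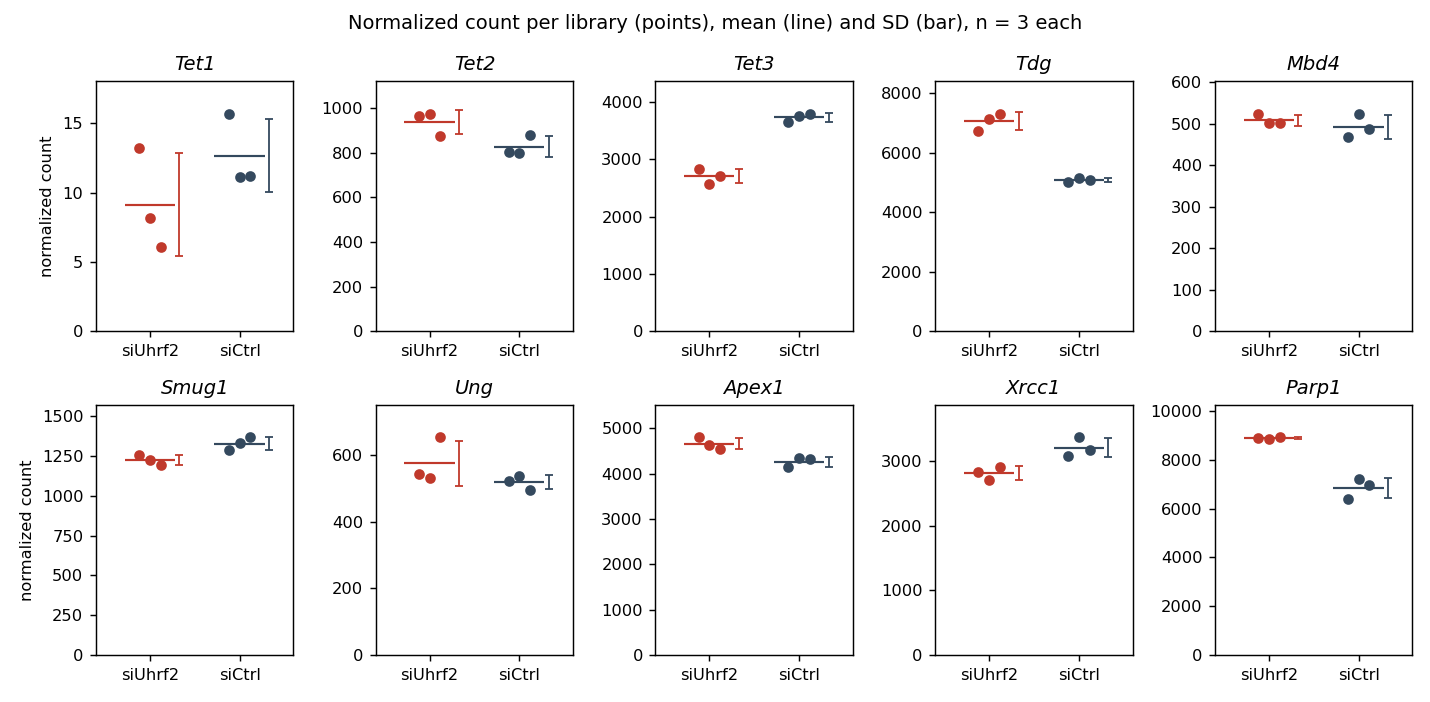
Normalized count of each of the 10 genes in every library (y axis, from 0, a separate scale per gene), with siUhrf2 on the left and siCtrl on the right of each panel. Points are libraries, horizontal lines group means and vertical bars the SD (n = 3 each). Tdg and Parp1 are higher and Tet3 is lower in all 3 siUhrf2 libraries, while the points of Tet1, Tet2, Mbd4 and Ung overlap between the groups.

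Among the dioxygenases, Tet3 was the prevalent transcript and fell. Tet3 had 2824, 2575 and 2706 normalized counts in siUhrf2, against 3644, 3758 and 3795 in siCtrl. Every siUhrf2 library lay below every siCtrl library, and the distance between the groups exceeded the range within either. Tet3 fell by 27.6%, or -0.47 on the log2 scale (SE 0.041, limma adjusted p = 2.16e-06), and 85.6% of all genes tested changed by less. Leaving out any 1 library moved it only between -0.50 and -0.43. In GRCm38 (GENCODE M21) Tet3 occupies chromosome 6 from 83362373 to 83459084, minus strand. Like all 10 members it is protein-coding, and it shares 0 exonic bases with annotated neighbours.

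Tet2 pointed the other way by a smaller amount. It had 965, 976 and 875 normalized counts in siUhrf2 and 802, 801 and 882 in siCtrl. The groups overlapped, since siUhrf2 replicate 3 lay just under siCtrl replicate 3. The estimated rise was 1.13-fold (log2 0.18, SE 0.064, limma adjusted p = 0.028). This call was lost without siUhrf2 replicate 1 (adjusted p = 0.068), siUhrf2 replicate 2 (0.10), siCtrl replicate 1 (0.078) or siCtrl replicate 2 (0.090), and on log2(FPKM + 1) (0.079). Tet2 occupies chromosome 3 from 133463679 to 133545139, minus strand.

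Tet1, the dioxygenase best known from embryonic stem cells, was close to absent. It had 13.2, 8.15 and 6.05 normalized counts in siUhrf2 and 15.7, 11.1 and 11.2 in siCtrl, which stand for 6 to 15 estimated reads per library. At 0.055 ± 0.023 FPKM in siUhrf2 and 0.076 ± 0.016 FPKM in siCtrl (SD, n = 3 each) it was left out of the test. The groups overlapped, and a difference was not detectable at this depth: without a filter on low values the log2 difference was -0.47 (limma adjusted p = 0.47). Its place is chromosome 10 from 62804570 to 62908996, minus strand.

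Seen as a family, the 3 dioxygenase genes shifted toward Tet2. To compare levels between genes, the reads of each gene were set per kilobase of its longest coding transcript and scaled to library size as in the deposited FPKM. On that scale Tet3 made up 70.6 ± 1.67% of the summed TET level in siUhrf2 and 79.0 ± 0.71% in siCtrl (SD, n = 3 each). Tet2 made up 29.2 ± 1.66% in siUhrf2 and 20.8 ± 0.72% in siCtrl, and Tet1 0.18% and 0.20%. The lowest Tet2 share in siUhrf2, 27.7%, was above the highest in siCtrl, 21.6%. The summed level itself was 7.12 ± 0.33 in siUhrf2 and 8.89 ± 0.21 in siCtrl. Shares within a library do not depend on how libraries are scaled to each other. They are given as a description, since the pairs and sums were formed after the values were seen.

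**Figure D2:**
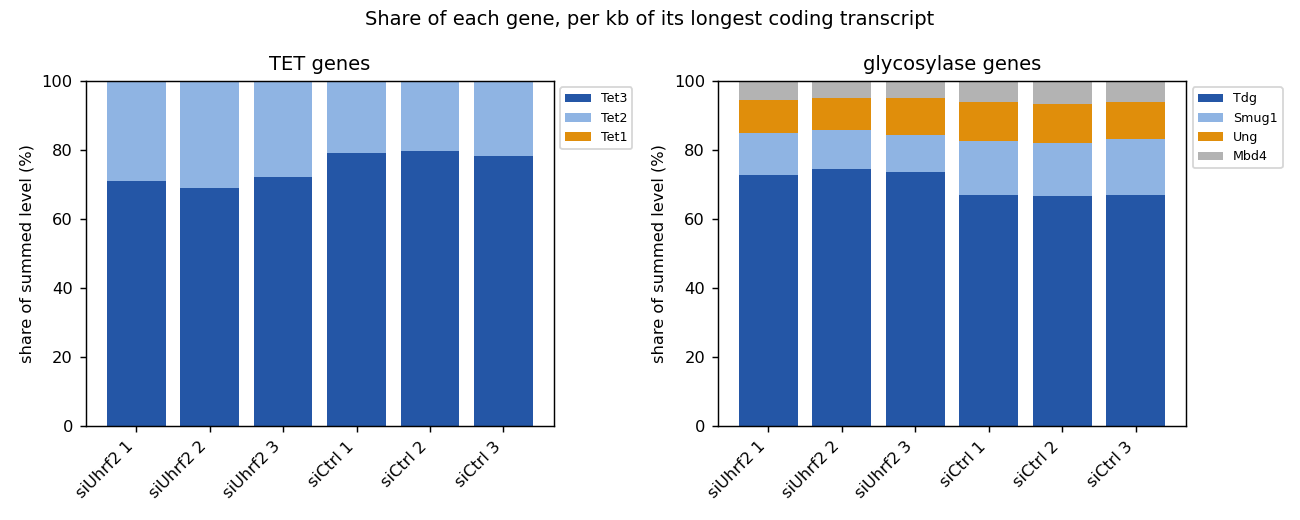
Share of each gene in the summed level of its family (y axis, %), per kilobase of the longest coding transcript, for the 3 TET genes on the left and the 4 glycosylase genes on the right, with 1 bar per library and siUhrf2 before siCtrl. Tet3 takes 68.8 to 72.1% in siUhrf2 and 78.2 to 79.6% in siCtrl, Tdg takes 72.6 to 74.4% in siUhrf2 and 66.5 to 67.0% in siCtrl, and Tet1 is too small to be seen.

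Among the glycosylases, Tdg had the highest level and rose. Tdg had 6732, 7155 and 7318 normalized counts in siUhrf2, against 5008, 5157 and 5102 in siCtrl. All siUhrf2 libraries lay above all siCtrl libraries, with a gap wider than the range within either group. The rise was 1.39-fold (log2 0.47, SE 0.037, limma adjusted p = 8.90e-07), which 85.9% of all genes tested did not reach in either direction, and it stayed between 0.45 and 0.51 when 1 library was left out. Tdg occupies chromosome 10 from 82629828 to 82650799, plus strand. Of the distinct 31-base words in its transcripts 48.0% also occur in transcripts of other genes, 37.1% in the processed pseudogene Tdg-ps on chromosome 15 from 82516311 to 82519278. The estimated reads of Tdg were whole within 0.01 read in 6 of 6 libraries, as they are where no read was divided between genes. The processed pseudogenes Tdg-ps, Gm9855, Gm5597 and AC122846.1, which share these words, are not among the genes of the deposited table. Whole reads therefore cannot show whether pseudogene reads were counted to Tdg, and this was not tested.

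The other glycosylases, which share uracil or mispaired thymine as substrates, did not pass the test. Smug1, which removes uracil and hydroxymethyluracil, had 1259, 1226 and 1194 normalized counts in siUhrf2 and 1286, 1331 and 1367 in siCtrl. The groups did not overlap, but the gap was narrow and the difference of -0.11 (SE 0.047, limma adjusted p = 0.054) missed the threshold. It passed without siUhrf2 replicate 1 (0.039) or siCtrl replicate 1 (0.039), at equal library totals (0.037) and without both the variance trend and the robust variances (0.044). Ung, the main uracil glycosylase, had 544, 532 and 655 normalized counts in siUhrf2 and 523, 539.6 and 497 in siCtrl. Its siUhrf2 replicate 3 stood above the other 5 libraries, and the difference of 0.14 did not pass (95% interval -0.04 to 0.33, limma adjusted p = 0.16). Without that library the difference was 0.05. Mbd4, a glycosylase with a methyl-CpG binding domain, had 524, 501 and 500.1 normalized counts in siUhrf2 and 467, 524 and 488 in siCtrl. The groups overlapped almost fully, and the difference of 0.05 had a 95% interval of -0.11 to 0.20 (limma adjusted p = 0.58).

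Tdg accordingly took a larger part of the summed glycosylase level, 73.5 ± 0.87% in siUhrf2 and 66.8 ± 0.24% in siCtrl (SD, n = 3 each). Smug1 took 11.5 ± 0.72% in siUhrf2 and 15.7 ± 0.39% in siCtrl. The ratio of Tdg to Smug1, per kilobase of the longest coding transcript, was 5.93, 6.47 and 6.79 in siUhrf2, against 4.32, 4.29 and 4.14 in siCtrl. Smug1 lies on chromosome 15 from 103153290 to 103167092 and Mbd4 on chromosome 6 from 115840697 to 115853371, both on the minus strand. Ung occupies chromosome 5 from 114130386 to 114139323, plus strand.

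After the glycosylase, the chain runs through Apex1, Parp1 and Xrcc1, and all 3 genes passed the test. Parp1, the poly(ADP-ribose) polymerase that senses strand breaks, had 8924, 8869 and 8929 normalized counts in siUhrf2, against 6403, 7224 and 6961 in siCtrl. The siUhrf2 libraries were nearly equal and all above the siCtrl libraries, of which replicate 1 was the lowest. The rise was 1.3-fold (log2 0.38, SE 0.042, limma adjusted p = 1.21e-05), and 0.33 without siCtrl replicate 1. Parp1 occupies chromosome 1 from 180568924 to 180601254, plus strand.

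Apex1, the main endonuclease at sites without a base, had 4802, 4642 and 4551 normalized counts in siUhrf2 and 4139, 4341 and 4315 in siCtrl. The groups did not overlap, and the rise was small, 1.09-fold (log2 0.13, SE 0.035, limma adjusted p = 0.0078). Apex1 occupies chromosome 14 from 50924968 to 50927139, plus strand. Of its exonic bases 61.7% overlap exons of Pip4p1 on the opposite strand. Whether counting used the strand is not stated in these sources. Pip4p1 had 2052 ± 73.4 normalized counts in siUhrf2 and 2013 ± 47.6 in siCtrl (SD, n = 3 each; limma adjusted p = 0.60). The estimated reads of Apex1 were whole within 0.01 read in 6 of 6 libraries.

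Xrcc1, the scaffold that holds polymerase beta and DNA ligase III, fell. It had 2831, 2706 and 2916 normalized counts in siUhrf2 and 3085, 3369 and 3175 in siCtrl. The groups did not overlap, and the change was -0.19 on the log2 scale (SE 0.044, limma adjusted p = 0.0030), so that it fell by 12.2%. The ratio of Parp1 to Xrcc1 per kilobase of the longest coding transcript was 2.06, 2.14 and 2.0 in siUhrf2, against 1.35, 1.40 and 1.43 in siCtrl. Xrcc1 occupies chromosome 7 from 24546289 to 24573440, plus strand.

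**Figure D3:**
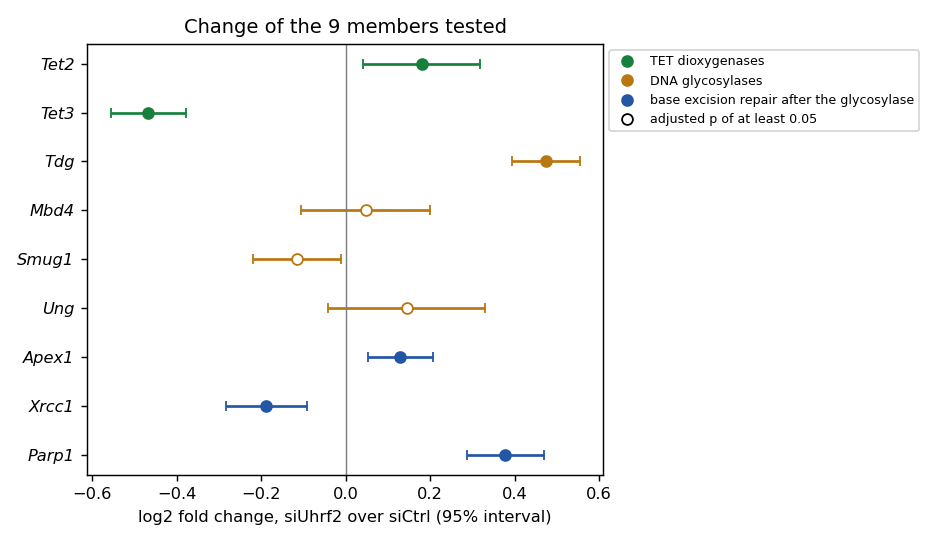
Log2 fold change of the 9 genes tested, siUhrf2 over siCtrl (x axis), with its 95% interval as a bar, coloured by role. Filled points passed at an adjusted p under 0.05 and open points did not. Tdg (0.47) and Parp1 (0.38) are farthest to the right and Tet3 (-0.47) farthest to the left.

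The changes were of moderate size within this comparison, in which most genes passed the test. The median fold of all genes that passed, taken in either direction, was 1.22, and Tet3, Tdg and Parp1 exceeded it. Tet2, Apex1 and Xrcc1 changed by less. The distribution of all genes tested is shown with the positions of the members.

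**Figure D4:**
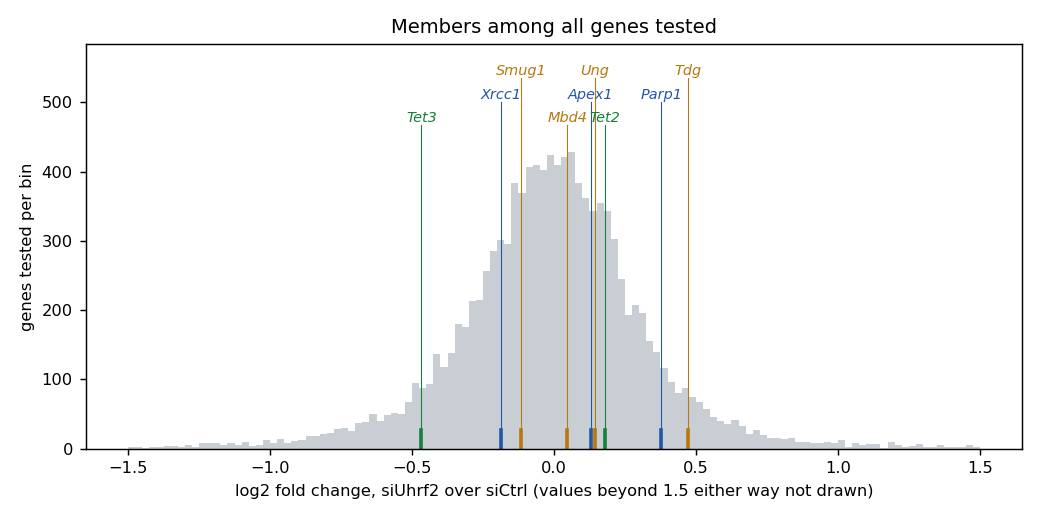
Log2 fold changes, siUhrf2 over siCtrl (x axis), of the genes tested, as the number of genes per bin (y axis), with the 9 members marked and coloured by role as green for dioxygenases, orange for glycosylases and blue for later repair genes. Values beyond 1.5 in either direction are not drawn. The members lie on both sides of 0, with Tet3, Parp1 and Tdg toward the flanks.

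The promoters of Tdg, Parp1 and Tet3, the members with the largest changes, are shown with each CpG in capitals, since CpG is where most cytosine methylation of mammalian DNA lies. The sequences are from RefSeq on GRCm38.p6, 5′ to 3′ on the strand of the gene, from 250 bases before to 50 after the annotated start. They cover chr10:82629588-82629887 (plus strand) for Tdg, chr1:180568641-180568940 (plus strand) for Parp1 and chr6:83441629-83441928 (minus strand) for Tet3.
Tdg: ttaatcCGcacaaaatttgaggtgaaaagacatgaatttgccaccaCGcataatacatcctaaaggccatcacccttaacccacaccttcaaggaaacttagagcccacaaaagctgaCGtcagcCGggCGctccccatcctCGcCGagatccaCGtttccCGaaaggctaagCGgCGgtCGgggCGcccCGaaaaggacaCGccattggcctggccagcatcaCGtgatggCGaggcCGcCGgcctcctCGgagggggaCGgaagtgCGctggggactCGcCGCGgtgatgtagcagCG
Parp1: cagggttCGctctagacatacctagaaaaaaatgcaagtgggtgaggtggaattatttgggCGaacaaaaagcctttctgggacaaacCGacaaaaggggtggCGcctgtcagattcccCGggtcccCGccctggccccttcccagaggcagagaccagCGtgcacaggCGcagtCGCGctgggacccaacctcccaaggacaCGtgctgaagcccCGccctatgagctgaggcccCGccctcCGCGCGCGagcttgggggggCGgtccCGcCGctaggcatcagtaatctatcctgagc
Tet3: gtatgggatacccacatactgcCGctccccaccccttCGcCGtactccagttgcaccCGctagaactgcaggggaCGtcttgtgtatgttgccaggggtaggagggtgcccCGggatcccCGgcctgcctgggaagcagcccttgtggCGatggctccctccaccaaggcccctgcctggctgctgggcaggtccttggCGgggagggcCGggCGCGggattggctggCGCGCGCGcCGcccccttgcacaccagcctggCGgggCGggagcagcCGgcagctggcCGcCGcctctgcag
Tdg held 26 CpG, Parp1 20 and Tet3 22, while the median over 32851 promoters of the same length was 7. At least as many CpG were found in 16.9%, 26.5% and 23.1% of those promoters. Over all 10 members, each of which had a promoter in the table, the count ran from 7 in Xrcc1 to 57 in Tet2, with a median of 21. The Tet3 start used by RefSeq lies inside the GENCODE gene, whose start is farther upstream at 83459084. The windows of Tet1, Tet2, Smug1 and Xrcc1 also lie wholly inside their GENCODE genes, so the counts of 7 and 57 hold for the RefSeq starts alone. Transcripts were summed per gene, so the start in use was not analysed here.

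A short set of motifs was searched on both strands of these windows, with palindromic sites counted once. The SP1 box GGGCGG was found in 8 of 10 members and in 35.7% of all promoters, and Parp1 held 4 of them. The box CCAAT was found in 6 of 10 members and in 37.4% of all promoters. The E-box CACGTG was found in Tdg, Apex1 and Parp1 and in 7.15% of all promoters, and the element TGACGTCA in Tdg alone of the 10 and in 1.79% of all promoters. The E2F letters TTTCCCGC, the ETS letters CCGGAAG and the NRF1 motif were in 0 members and in 1.07%, 8.86% and 4.6% of all promoters. All promoters were not matched to the members for expression or for CpG, with a median of 7 CpG against 21 in the members. The letters GGGCGG themselves hold a CpG, so these shares are description alone. A match describes letters in this window and is not a bound site. Overlaps between motifs were not removed.

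How abundant the members were relative to each other depended on the length by which reads are divided. In the deposited FPKM this length was the mean over all annotated transcripts of a gene, short fragments included, within 1% for 98.5% of 24876 genes compared. For Parp1 it was 980.0 bases, whereas the longest coding transcript has 3873, a factor of 3.95. For Apex1 it was 966 bases against 1239, a factor of 1.28. The deposited FPKM put Parp1 first, at 185 ± 2.24 in siUhrf2 and 144 ± 8.16 in siCtrl (SD, n = 3 each). Per kilobase of the longest coding transcript Apex1 came first, at 76.5 ± 2.87 in siUhrf2 and 70.6 ± 1.54 in siCtrl.

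The order on that second scale was, in siUhrf2, Apex1, Parp1 (46.7 ± 0.57), Tdg (41.0 ± 1.34), Xrcc1 (22.6 ± 0.88), Smug1 (6.42 ± 0.23), Ung (5.48 ± 0.61), Tet3 (5.03 ± 0.28), Mbd4 (2.86 ± 0.10), Tet2 (2.08 ± 0.13) and Tet1 (0.013 ± 0.0054). In siCtrl it was Apex1, Parp1 (36.3 ± 2.07), Tdg (29.8 ± 0.31), Xrcc1 (26.0 ± 1.07), Tet3 (7.02 ± 0.13), Smug1 (7.01 ± 0.20), Ung (4.99 ± 0.20), Mbd4 (2.79 ± 0.15), Tet2 (1.85 ± 0.10) and Tet1 (0.018 ± 0.0038). Tet3 and Ung could not be separated by their spread in siUhrf2, nor Tet3 and Smug1 in siCtrl. Which transcripts these cells use was not measured, so both orders are bounded by the annotation. Fold changes between the groups are unaffected, since 1 length per gene was used in all libraries.

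**Figure D5:**
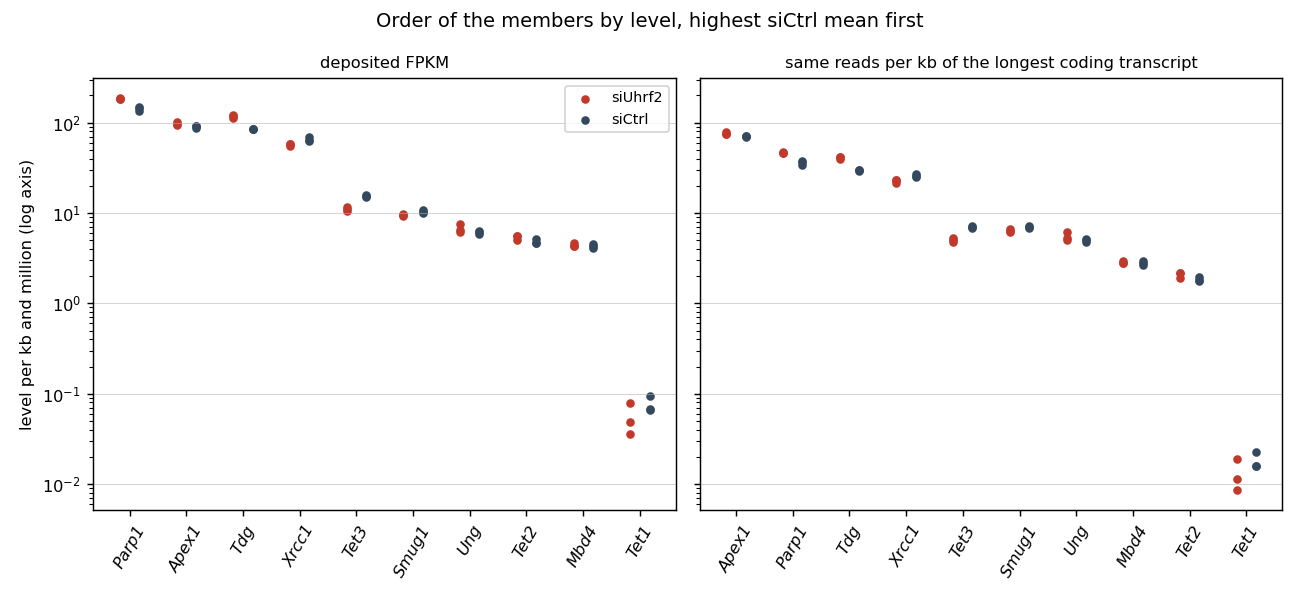
Level of each member per library (y axis, logarithmic) as deposited FPKM on the left and per kilobase of the longest coding transcript on the right, with genes ordered by their siCtrl mean and siUhrf2 drawn left of siCtrl. Parp1 leads on the left and Apex1 on the right, and Tet1 is the lowest on both.

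The counts for the other lists stand against the same shares of all genes tested, 61.0% passed, 29.9% higher and 31.1% lower, and nothing is read from a count near them. Of 7 other DNA glycosylase genes 6 were tested, 2 rose, 0 fell and 4 did not pass, with a median log2 fold change of 0.16. Neil3, an endonuclease VIII-like glycosylase of dividing cells, rose 1.27-fold (limma adjusted p = 0.0024), and Nthl1, which removes oxidized pyrimidines, 1.14-fold. Neil2, another member of the NEIL group, was the gene under 1 FPKM. Of 18 other base excision repair and nick sealing genes, all tested, 7 rose, 3 fell and 8 did not pass, with a median of 0.10. DNA ligase I gene Lig1 had 7011 ± 424 normalized counts in siUhrf2 and 4749 ± 277 in siCtrl (SD, n = 3 each), a rise of 1.48-fold. The polymerase delta subunit genes Pold2 and Pold3 rose 1.51-fold and 1.29-fold, and Hmgb1, a chromatin protein gene, 1.2-fold. The flap endonuclease gene Fen1, the second AP endonuclease gene Apex2 and Parg, which removes poly(ADP-ribose), were those that fell, by 0.17, 0.17 and 0.14 on the log2 scale. Of the direct partners of XRCC1, Lig3 and Polb had log2 differences of 0.03 and 0.10 and did not pass.

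Of 19 genes that supply or partner the TET enzymes 17 were tested, 7 rose, 4 fell and 6 did not pass, where 61.0% of all genes tested passed. Their median log2 fold change was 0.06, against -0.01 for all genes tested. Idh1, whose enzyme makes the TET cosubstrate alpha-ketoglutarate in the cytosol, had 10879 ± 419 normalized counts in siUhrf2 and 7173 ± 356 in siCtrl (SD, n = 3 each), a rise of 1.52-fold (limma adjusted p = 3.65e-07). Its mitochondrial counterpart Idh2 rose 1.28-fold. Cxxc4, which encodes a binding partner and inhibitor of TET2, rose 1.52-fold, and Gadd45b, a stress gene linked to demethylation, fell by 0.56 on the log2 scale. Ogt, the GlcNAc transferase gene whose product binds TET proteins, had 9017 ± 357 normalized counts in siUhrf2 and 8946 ± 144 in siCtrl and did not pass. Dppa3, which protects methylated DNA in the early embryo, was at 0 in every library. The vitamin C transporter gene Slc23a1 was under 1 FPKM. Its relative Slc23a2 had 15.5 FPKM in siUhrf2 and 13.4 FPKM in siCtrl and rose 1.16-fold (limma adjusted p = 0.0047).

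Of 13 reader and deaminase genes of modified cytosine 11 were tested, 1 rose, 5 fell and 5 did not pass, where 29.9% of all genes tested were higher and 31.1% lower. Their median log2 fold change was -0.07. The methyl-CpG binding zinc finger gene Zbtb4 had 1848 ± 21.5 normalized counts in siUhrf2 and 2464 ± 20.1 in siCtrl (SD, n = 3 each), a change of -0.41 (limma adjusted p = 2.65e-06). Its relatives Zbtb38 and Zbtb33, the last of which encodes Kaiso, changed by -0.21 and -0.21. Thyn1, whose protein was found bound to hydroxymethylated DNA, was the riser, at 1.21-fold, and Apobec1 fell by 0.79 on the log2 scale. Apobec2, of the same deaminase family, was at 0 in every library. Some genes under these lists were shown because few were counted, as direct partners or beside a relative. The others named were among the up to 4 per list with the smallest adjusted p.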

How the data were processed

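Total RNA from AML12 cells was sequenced by Illumina RNA-seq in 3 siUhrf2 and 3 siCtrl libraries, per the labels. Groups and replicate numbers came from the sample titles. For each gene the authors deposited a normalized count (a non-negative signal) in every library. The deposited FPKM values stand beside it, as the headers name them. Kallisto 0.44.0, edgeR and GRCm38.p6 appear, without roles, in the submitters' processing notes. Annotation release, strand setting and normalization method are not stated.

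Symbols were matched to GENCODE M21 (35574 of 35709 identifiers). The symbol Oga was matched through its older name Mgea5. The most frequent low value per library gave what 1 read was worth, and 63.0 to 64.9% of values above 0 were whole reads within 0.01, so the normalized counts were not treated as counts and a count test was not run. The fit used limma 3.58.1 under R 4.3.3, with statmod 1.5.0 for robust variances and a trend of variance on level. Its input was log2(normalized count + 1), computed from the deposited values, for the 11343 genes averaging 1 FPKM or more. Per-transcript levels, shares, ratios and the checks of length and shared words were chosen after the data were seen. P-values were Benjamini-Hochberg adjusted over all genes tested, with 0.05 as the threshold. Fold changes on this scale understate those of low genes. The fit was tested on simulated data in which few genes changed and no replicate number stood apart. Most genes passed in the real data, so that test does not measure the error of the shares given here. Replicates differed by more than sampling noise (chi-square per degree of freedom 2.95 to 10.6), with the higher values in pairs that held replicate 1. Positions are 1-based. The members and lists were chosen with earlier results of these data known. Members were all named, and from each other list up to 4 genes with the smallest adjusted p, besides those excepted above. Some genes of these lists are not reported here. Alternatives covered the pseudocount, low-value filter, scaling, measure, variance model, threshold, replicate block and leaving out each library.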

Additional observations from a re-analysis of the deposited data

How the results depend on the processing

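The number of genes that passed, 6919, was lowest, 5354, at a threshold of 0.01 and highest, 7435, when low genes were kept, and leaving out 1 library gave 6010 to 7047. Of the members tested, 3 to 4 were higher and 2 to 3 lower under the 18 alternatives, also when 1 library was left out. Tdg, Parp1, Apex1, Tet3 and Xrcc1 kept their direction and call under the adjusted p of each alternative, and 0 members changed direction. Tet2 and Smug1 crossed the threshold, in the settings given beside them; Tet2 also did not reach an adjusted p under 0.01. With a filter at 5 FPKM, Mbd4 was not tested. Deviations from the group mean correlated at 0.18, 0.24 and 0.066 between same-numbered libraries, and at -0.22 to 0.017 between differently numbered ones. What same-numbered libraries have in common is not stated in the labels and was not tested. The main fit held no replicate block. With a replicate block 7248 genes passed, and 4 members were higher and 2 lower. In the deviations above, taken without that block, every library correlated best with its own number. Such deviations sum to 0 within a group, so these correlations are not independent of each other. Other scalings shifted the median of all genes by at most 0.020 on the log2 scale. Depth limits Tet1, at 15 estimated reads or fewer.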

Other observations

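The length behind the deposited FPKM differs between genes in a way that bears on any comparison of levels. The longest annotated transcript was 1.42 times that length at the median over 24876 genes. Among the members the factor for the longest coding transcript ran from 1.24 in Ung to 4.22 in Tet1.

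The members whose transcript words are most shared with other genes were Apex1, at 57.1%, and Tdg, at 48.0%. The other 8 shared at most 6.08%, in Mbd4.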
